A study of Mus musculus with 8 samples.

Results

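The comparison described here is the baseline difference between mice carrying the S105A form of GATA4 and wild-type (WT) mice, in hearts that received no PE. It rests on 4 of the 8 arrays of the study, chosen by their titles: WT untreated (arrays 1 and 2) and S105A untreated (arrays 5 and 6). All 8 mice were 9 weeks old and on a C57Bl6 background, and the mutants are labelled as homozygous. The other 4 arrays came from WT (3 and 4) and S105A (7 and 8) mice given PE for 5 days from an implanted pump, at a daily dose of 100 mg per kg of body weight; the labels expand PE to pseudoephedrine. Those arrays share no animal with the untreated ones, and their genotype difference is used below only as a second set of samples. Each array holds RNA of 1 animal on an Affymetrix mouse array. The labels name the ventricle in one field and the whole heart in another, and they call the controls untreated while the protocol speaks of saline. Nothing in them says whether the 2 mice of a group were littermates.

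GATA4 is a zinc-finger transcription factor that binds GATA sequences and drives genes of cardiac muscle together with partners such as NKX2-5, MEF2C, SRF and TBX5. The serine changed in S105A lies in its transactivation domain and is phosphorylated by ERK and p38 kinases downstream of adrenergic and growth factor receptors. Replacing this serine by alanine removes the phosphorylation site while leaving the rest of the protein in place. Known GATA4-dependent genes of the heart include those of the natriuretic peptides (Nppa, Nppb), of the myosin heavy chains and of troponins.

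Values are log2 expression values, so a difference of 1 is 2-fold, and differences are S105A minus WT. Of 19938 genes tested with limma, none passed a Benjamini-Hochberg adjusted p of 0.05 (0.00%). Unadjusted, 989 genes (4.96%) lay under 0.05 and 167 (0.838%) under 0.01. Between single arrays, the median absolute difference over genes was 0.0902 for the WT pair and 0.0884 for the S105A pair. For the 4 pairs of a WT and an S105A array it was 0.101 to 0.117. The WT pair was at least 2-fold apart in 34 genes and the S105A pair in 6, against 17 and 19 for array 1 and 67 and 69 for array 2 when set against the S105A arrays. These pairs share arrays and their gap was not tested. The PE pairs, which enter the same fit, were wider, with a median absolute difference of 0.157 for WT and 0.132 for S105A. At least 2-fold apart were 703 genes in the WT PE pair and 171 in the S105A PE pair. In a simulation, 100 genes were changed by each of 2 sizes, and each gene had the same spread in every group. The fit called 77 of the changes of 1 log2 unit and 98 of those of 2 log2 units. Of its 185 calls over both sizes, 10 were false. The real PE pairs were wider than the untreated ones, so these shares do not tell how many such changes were missed here.

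Since no gene passed the adjusted threshold, the genes with the smallest p are given below as a description. An unadjusted p under 0.01 together with a difference of at least 1.5-fold was met by 39 genes (0.196%), 15 higher (0.0752%) and 24 lower (0.120%) in S105A. In both S105A arrays, 21.8% of all genes lay higher and 22.7% lower than in both WT arrays, so a lack of overlap is common. With 2 arrays against 2, no exact permutation p (two-sided) can be below 0.333. The genes described next are the 15 in each direction with the smallest p among those with a difference of at least 0.5 and no overlap.

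The largest difference of the comparison was in Ogdhl, which encodes a mitochondrial protein related to 2-oxoglutarate dehydrogenase. It read 9.89 and 10.01 in the WT arrays and 6.63 and 6.70 in the S105A arrays, with no overlap. The difference was -3.29 (SE 0.489, adjusted p = 0.491 by limma), or 9.76-fold lower in S105A. Lgr6, a receptor for R-spondins, the secreted enhancers of Wnt signalling, read 8.92 and 8.84 in WT and 6.92 and 6.77 in S105A. Its difference was -2.03 (SE 0.265, adjusted p = 0.422 by limma). In both genes the arrays of an untreated group lay close together, and the PE arrays that share the fit were wide: Ogdhl read 8.28 and 9.99 in the WT PE pair, and Lgr6 7.77 and 8.68. In a fit of the 4 untreated arrays alone the SE was 0.0809 for Ogdhl and 0.086 for Lgr6, and Ogdhl, Pttg1, Lgr6 and Wdfy1 passed the adjusted threshold (4 of 19938 genes, 0.0201%), with limma adjusted p of 0.000138, 0.000229, 0.00139 and 0.0298. That fit has 2 residual degrees of freedom against 4 in the fit of all arrays, and gives 2472 genes (12.4%) an unadjusted p under 0.05.

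Among the genes higher in S105A, Pttg1 encodes securin, the inhibitor of the protease that separates sister chromatids. Its values were 7.65 and 7.68 in WT and 10.26 and 10.38 in S105A, which is 6.28-fold apart and without overlap. In the PE arrays the same gene read 9.56 and 10.08 in WT and 9.83 and 9.52 in S105A, so that the WT untreated pair was low against the other 6 arrays. The adjusted p of Pttg1 in the fit of all arrays was 0.05003 (limma), just outside the threshold. Tmem37, related to the gamma subunits of calcium channels, read 6.57 and 6.74 in WT and 7.67 and 7.64 in S105A (difference 0.999, SE 0.0879, adjusted p = 0.120 by limma). Snrpe, a core Sm protein of the spliceosome, read 9.07 and 8.98 against 9.81 and 9.94, a difference of 0.85. Ndrg4, a cytoplasmic protein abundant in heart and brain, read 8.27 and 8.96 against 10.25 and 10.25 and thus varied more among the WT arrays. Wdfy1, an endosomal adaptor protein, read 6.10 and 6.12 against 7.11 and 7.09.

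**Figure D1:**
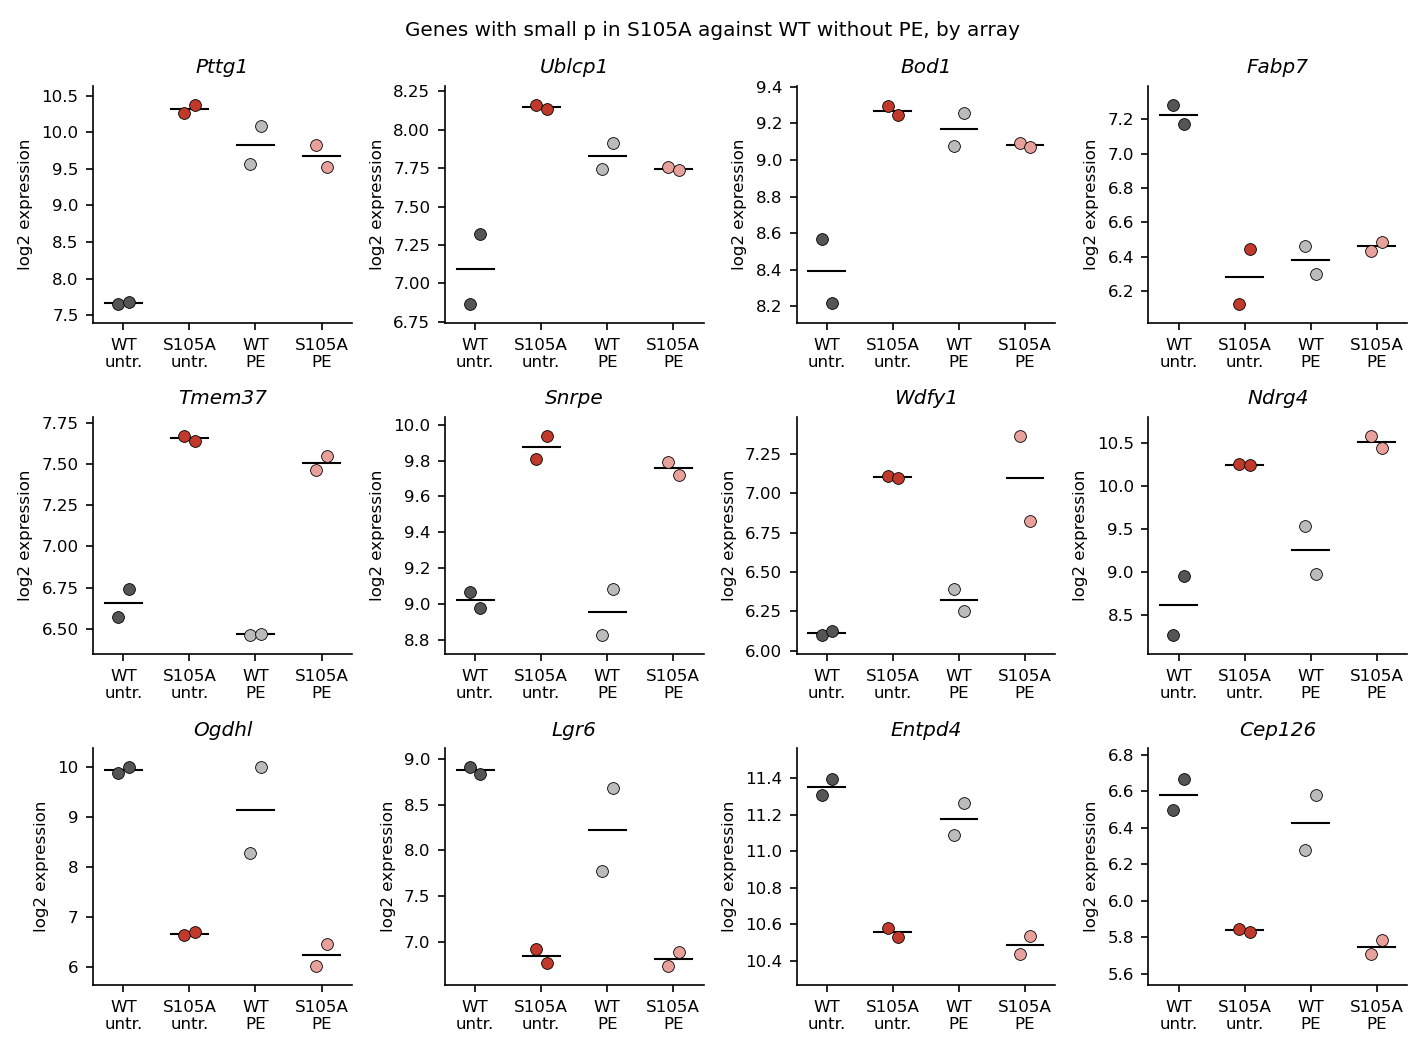
Log2 expression of 12 genes in every array, by group (untr., untreated); points are arrays, 2 per group, and bars are group means. The upper row shows genes in which the WT untreated arrays stood apart from the other 6, such as Pttg1 at 7.65 and 7.68; the other rows show genes such as Tmem37 and Ogdhl in which both S105A groups differed from both WT groups.

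The remaining genes with small p and higher values in S105A differed by 0.50 to 1.65. They were Ublcp1, a phosphatase of the nuclear proteasome (1.05), Bod1, a kinetochore protein (0.87), and Akr1e1, an aldo-keto reductase (0.50). Rrad, a small GTPase that restrains L-type calcium channels, was 0.55 higher. Hyi, a hydroxypyruvate isomerase, and Gadd45gip1, a protein of the mitochondrial ribosome, were 0.64 and 0.68 higher. Of the same 15 genes, 4 are noncoding or segment transcripts: the long noncoding RNA Crnde (0.74), the small nucleolar RNA Snora33 (1.65), the minor spliceosomal RNA Rnu12 (0.60) and the T cell receptor segment Trav7n-5 (0.57). Trav7n-5 lay between 4.01 and 4.60 in all 8 arrays, below the array medians of 6.18 to 6.23. Snora33 read 6.89 and 6.11 in WT and 7.93 and 8.36 in S105A, with the larger gap inside the WT pair.

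On the lower side, Entpd4, an apyrase of the Golgi apparatus and lysosome, had the smallest p. It read 11.31 and 11.39 in WT and 10.58 and 10.53 in S105A, a difference of -0.79 (SE 0.0930, adjusted p = 0.422 by limma). Fabp7, the brain-type fatty acid binding protein of glia, read 7.29 and 7.17 against 6.12 and 6.44. Trabd2b, a membrane protease that inactivates Wnt proteins, read 11.03 and 11.31 against 10.27 and 10.03, and its second probe set differed in the same direction (-0.79). The other 10 genes of this set differed by between -1.05 and -0.56. They included Ocel1, which carries an occludin-like domain (-1.05), H2-T24, a nonclassical major histocompatibility gene (-0.93), and Ttc38, a tetratricopeptide protein (-0.87). Cep126, a protein of the centrosome and cilium base (-0.74), Rnpep, an aminopeptidase (-0.58), and Fstl4, a follistatin-like secreted protein (-0.80), were also among them. Slc25a37 is the mitochondrial iron importer mitoferrin (-0.67), and Ciapin1 takes part in cytosolic iron-sulfur cluster assembly (-0.60).

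Some large differences came with wide spread. Sun3, a nuclear envelope protein known from testis, read 8.17 and 7.92 in WT and 6.75 and 5.48 in S105A, a difference of -1.93 with an SE of 0.551. Tmprss13, a membrane serine protease, read 8.82 and 8.97 in WT and 6.74 and 8.36 in S105A. Array 6 was therefore close to WT for Tmprss13 and array 5 was the one nearer to WT for Sun3, so that the 2 mutants did not share a level. The cytokine gene Il15 (7.90 and 6.23 against 8.79 and 8.59) and the small nucleolar RNA Snord118 (6.23 and 4.68 against 7.04 and 7.77) had WT arrays more than 2-fold apart. Ptgds, the synthase of prostaglandin D2, read 10.76 and 11.66 in WT and 10.18 and 10.13 in S105A. With PE, Il15 read 6.49 and 6.16 in WT and 7.72 and 8.14 in S105A. Its PE difference of 1.60, without overlap (13.6% of all genes in the same direction), was close to that at baseline. Tmprss13 was 0.84 higher in S105A with PE, without overlap and opposite to its baseline direction. The PE groups overlapped for Sun3 (0.67), Snord118 (0.73) and Ptgds (-0.51).

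The PE arrays come from other animals, so they show which of the baseline differences were present in a second set of mice. Among the 30 genes, 21 differed in the same direction with PE (55.3% of all genes did), and 19 had S105A and WT PE arrays that did not overlap in that direction (13.6% of all genes). An unadjusted p under 0.05 in the same direction was reached by 17 of the 30 (1.73% of all genes) and in the opposite direction by none. Because 1 estimate of spread per gene serves both comparisons and these genes were picked for a small p, the PE arrays were also fitted alone: 16 of 30 then passed in the same direction (0.792% of all genes) and none in the opposite one. Over all genes, none was past the adjusted threshold of limma with PE (0.00%), and 535 (2.68%) lay under 0.05 unadjusted. Over all genes the differences without and with PE correlated at r = 0.25 (Spearman 0.179, 19938 genes), a description across genes that are not independent and were read on the same arrays.

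**Figure D2:**
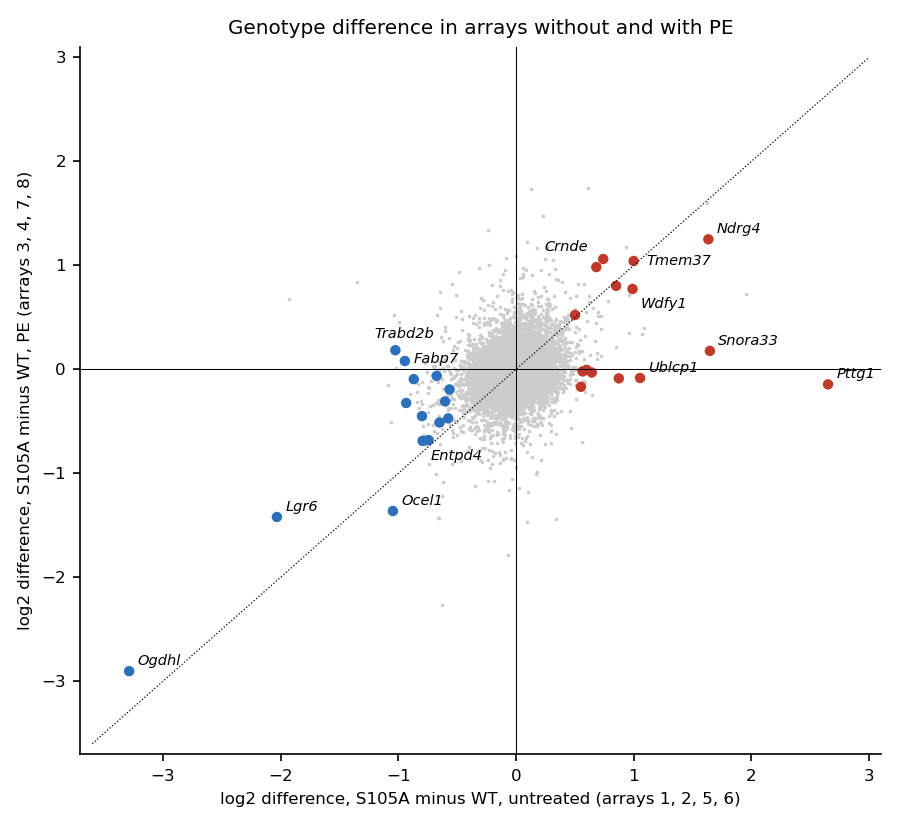
Log2 difference between S105A and WT in untreated hearts (horizontal axis) against the same difference in PE hearts (vertical axis), 19938 genes in grey, with the 15 genes higher (red) and 15 lower (blue) at baseline; the dotted line marks equal differences. Ogdhl, Lgr6, Ndrg4 and Tmem37 lie near the line, while Pttg1, Ublcp1 and Snora33 lie near a PE difference of 0.

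The genes with an unadjusted p under 0.05 (limma) in both sets of animals were led by Tmem37, at 6.46 and 6.47 in WT PE and 7.47 and 7.55 in S105A PE. Its difference of 1.04 with PE was as large as without it. Snrpe (0.80 with PE), Akr1e1 (0.52), Ndrg4 (1.25), Wdfy1 (0.77), Crnde (1.06) and Gadd45gip1 (0.98) were higher in S105A in both sets. Ogdhl (-2.90), Lgr6 (-1.42), Ocel1 (-1.36), Entpd4 (-0.69), Cep126 (-0.68), Zfp131 (-0.51), Rnpep (-0.47), Fstl4 (-0.45), Ciapin1 (-0.31) and Ankrd49 (-0.19) were lower in both. Averaged over both treatments, a contrast added after the data were seen, Tmem37 was the single gene past an adjusted p of 0.05 (0.0218, limma; 0.00502% of genes). Tmem37 lost this call in 6 of the 8 fits that left out 1 array, each of them without an untreated or an S105A PE array; without array 3 it was 1 of 14 genes past the threshold, and without array 4 1 of 225.

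In another group of genes the WT untreated pair stood apart from the other 6 arrays. For Pttg1, Ublcp1, Bod1, Rrad, Hyi, Fabp7, Ttc38 and Trabd2b, both WT PE arrays lay on the S105A side of the midpoint of the untreated means, and the PE difference was between -0.17 and 0.18. Ublcp1 read 6.86 and 7.32 in WT and 8.16 and 8.13 in S105A untreated hearts, and between 7.74 and 7.91 with PE. Trabd2b lay between 9.92 and 10.39 in the 6 other arrays. Counting Zfp131, 9 of the 30 genes had both WT PE arrays on that side, a share close to the 30.3% of all genes, so the count itself sets these genes apart from no others. The difference between the PE effects of the genotypes had an unadjusted p under 0.05 for 14 of the 30 (2.42% of all genes), and these genes were chosen on arrays that enter this contrast. No gene passed after adjustment (0.00%; Pttg1 adjusted p = 0.336 by limma).

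Neither Gata4 nor the genes that its protein is known to act on passed the test, and no other gene did. Gata4 mRNA read 10.14 and 10.05 in WT and 10.07 and 9.96 in S105A, which overlap, and its difference was -0.08 (SE 0.106, unadjusted p = 0.497 by limma). The probe set cannot see a single amino acid change, so these values do not check the genotype labels. Of 22 measured GATA family and partner factors, 9 were higher and 13 lower, with a median of -0.06 (0.003 for all genes). Srf, the serum response factor that works with GATA4 on muscle promoters, was the one with an unadjusted p under 0.05 (2.53% of genes on the lower side). It read 10.10 and 10.18 in WT and 9.86 and 9.79 in S105A (difference -0.31, unadjusted p = 0.00727 by limma), but its difference with PE was -0.04. Nkx2-5 (0.06) and Gata6 (-0.16) overlapped between the genotypes.

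Among 22 measured genes described as GATA4 targets in the heart, 7 were higher and 15 lower (median -0.06). None had an unadjusted p under 0.05 (4.96% of all genes), and with so few genes this count does not set the list apart. Nppa, the atrial natriuretic peptide gene, read 11.11 and 11.84 in WT and 10.73 and 10.92 in S105A. Its difference of -0.65 (SE 0.4, unadjusted p = 0.147 by limma) was no larger than the gap between the WT arrays. Nppb, its B-type relative, differed by -0.34 with overlap. Myh7, the slow myosin heavy chain, read 8.29 and 8.52 against 8.75 and 8.63, and Myh6, the main adult isoform in mouse, differed by -0.004. The calcium pump gene Atp2a2 (0.009), its inhibitor Pln (-0.005), cardiac troponin T (Tnnt2, -0.007) and the stress gene Ankrd1 (0.06) were close to 0. The 24 sarcomere genes split evenly, 12 higher and 12 lower, around a median of 0.0007. Calcium handling gave 10 higher and 11 lower, with Cacnb2, a regulatory subunit of the L-type channel, at 6.01 and 5.96 in WT and 6.37 and 6.44 in S105A.

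Promoters were compared because GATA4 acts through GATA sites, and 4 genes are shown: Pttg1 and Tmem37, with the smallest p, and Ogdhl and Lgr6, with the largest differences on the lower side. Of these, Tmem37 holds a match. Each is the 250 bases before the annotated start in RefSeq (GRCm38.p6), read 5' to 3' along the gene, with matches to the searched motifs in capitals. They lie at chr1:120073781-120074030 (minus strand) for Tmem37, chr11:43425982-43426231 (minus strand) for Pttg1, chr14:32321769-32322018 (plus strand) for Ogdhl and chr1:135105277-135105526 (minus strand) for Lgr6.
Tmem37: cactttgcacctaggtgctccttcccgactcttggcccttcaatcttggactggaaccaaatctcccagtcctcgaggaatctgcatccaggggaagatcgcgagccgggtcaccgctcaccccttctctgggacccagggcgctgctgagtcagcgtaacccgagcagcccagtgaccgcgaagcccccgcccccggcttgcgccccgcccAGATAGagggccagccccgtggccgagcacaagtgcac
Pttg1: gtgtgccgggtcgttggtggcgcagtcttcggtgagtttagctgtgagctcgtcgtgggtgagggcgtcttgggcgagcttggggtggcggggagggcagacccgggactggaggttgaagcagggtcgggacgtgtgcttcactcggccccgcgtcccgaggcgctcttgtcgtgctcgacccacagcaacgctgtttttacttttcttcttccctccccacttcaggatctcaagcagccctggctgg
Ogdhl: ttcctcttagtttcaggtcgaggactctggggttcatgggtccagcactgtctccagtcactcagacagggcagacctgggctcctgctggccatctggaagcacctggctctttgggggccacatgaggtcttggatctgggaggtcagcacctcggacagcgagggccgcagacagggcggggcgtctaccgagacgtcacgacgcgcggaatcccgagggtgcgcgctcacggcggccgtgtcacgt
Lgr6: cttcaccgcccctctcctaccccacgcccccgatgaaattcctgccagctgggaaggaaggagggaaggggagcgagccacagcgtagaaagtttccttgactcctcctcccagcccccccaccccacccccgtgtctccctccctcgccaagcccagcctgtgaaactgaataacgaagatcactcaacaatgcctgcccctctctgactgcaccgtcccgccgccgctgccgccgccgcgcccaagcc
The motifs searched were AGATAA, its form with a final G (that is, AGATAG), the form TGATAA with a different first letter, and also TGATAG with both exchanges. Both strands were searched in windows of 300 bases, from 250 before to 50 after the start. Tmem37 holds AGATAG 38 bases before its start, and Snrpe, not printed, holds CTATCA, the reverse complement of TGATAG, 96 bases before its start. Nppa holds TGATAA 122 bases before its start. A match occurred in 5 of 19 promoters found for the 30 genes (26.3%), in 6 of 26 for the genes past an unadjusted p of 0.01 and 1.5-fold (23.1%) and in 3897 of 15562 tested genes. The share in the promoters of the genes with small p was thus close to that of all tested genes. Of the genes described as GATA4 targets, 9 of 19 held a match (47.4%), but that list may itself rest on such sites. The shares were not tested against each other, and sites outside the windows were not searched. Over all 32851 promoters of the table, with several starts for some genes, the share with a match was 29.8%. A match is a run of letters and not a bound site, and no match says only that these letters are not in this window.

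Gata4 lies on chromosome 14, and the genes around it were examined by their order in the RefSeq table (GRCm38.p6), since the altered site lies there. Among the 25 measured genes on each side, 26 were higher and 24 lower, with a median of 0.0018. None passed an unadjusted p of 0.01 with 1.5-fold (0.196% of all genes), a share too low for this count to set the neighbours apart. An unadjusted p under 0.05 was reached by 2 higher and 5 lower neighbours (2.43% and 2.53% of all genes). Trim13 (-0.53), Prss55 (-0.48) and Dleu7 (-0.29) were lower with an unadjusted p under 0.01 (0.838% of all genes). Prss55 and Dleu7 read below the array medians. With PE these genes differed by -0.08, -0.10 and -0.15. The neighbours ranged from -0.53 for Trim13, a ubiquitin ligase, to 0.68 for the microRNA gene Mir15a. Farther out on chromosome 14, Stc1, Slc25a37 and Entpd4 form a run of genes lower in S105A that is separated from Gata4 by 53 to 57 measured genes. Stc1, which encodes the secreted glycoprotein stanniocalcin, read 6.54 and 7.01 in WT and 6.04 and 6.20 in S105A. The other measured genes within this run, Nkx2-6 and Synb, were 0.17 to 0.21 higher. With PE, Entpd4 was again lower without overlap (-0.69), while Slc25a37 differed by -0.06 and its groups overlapped.

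Chromosome 14 held 5 of the 39 genes past an unadjusted p of 0.01 and 1.5-fold. That is 0.715% of its 699 tested genes (0.196% of all genes), and all 5 were lower in S105A. The other 2 of them, Tmem260 and Ogdhl, lay 239 and 327 measured genes from Gata4. Chromosome 8 held 6 (0.628% of 955), chromosome 1 held 6 (0.535% of 1122), chromosome 11 held 7 (0.448% of 1563) and chromosome 15 held 3 (0.402% of 747). Chromosomes 2, 5, 6, 12, 16, 18 and 19 held none, and the remaining autosomes and the X chromosome held 1 or 2 each. On chromosome 11, Pttg1 and Ublcp1 lay with 8 measured genes between them and both were higher in S105A. Gpr75, an orphan receptor that was 1.03 lower, lay near Bod1 with 3 genes between. Ciapin1 and the adhesion receptor gene Adgrg1, both lower, formed the run on chromosome 8. Whether shared position bears on these differences was not tested.

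**Figure D3:**
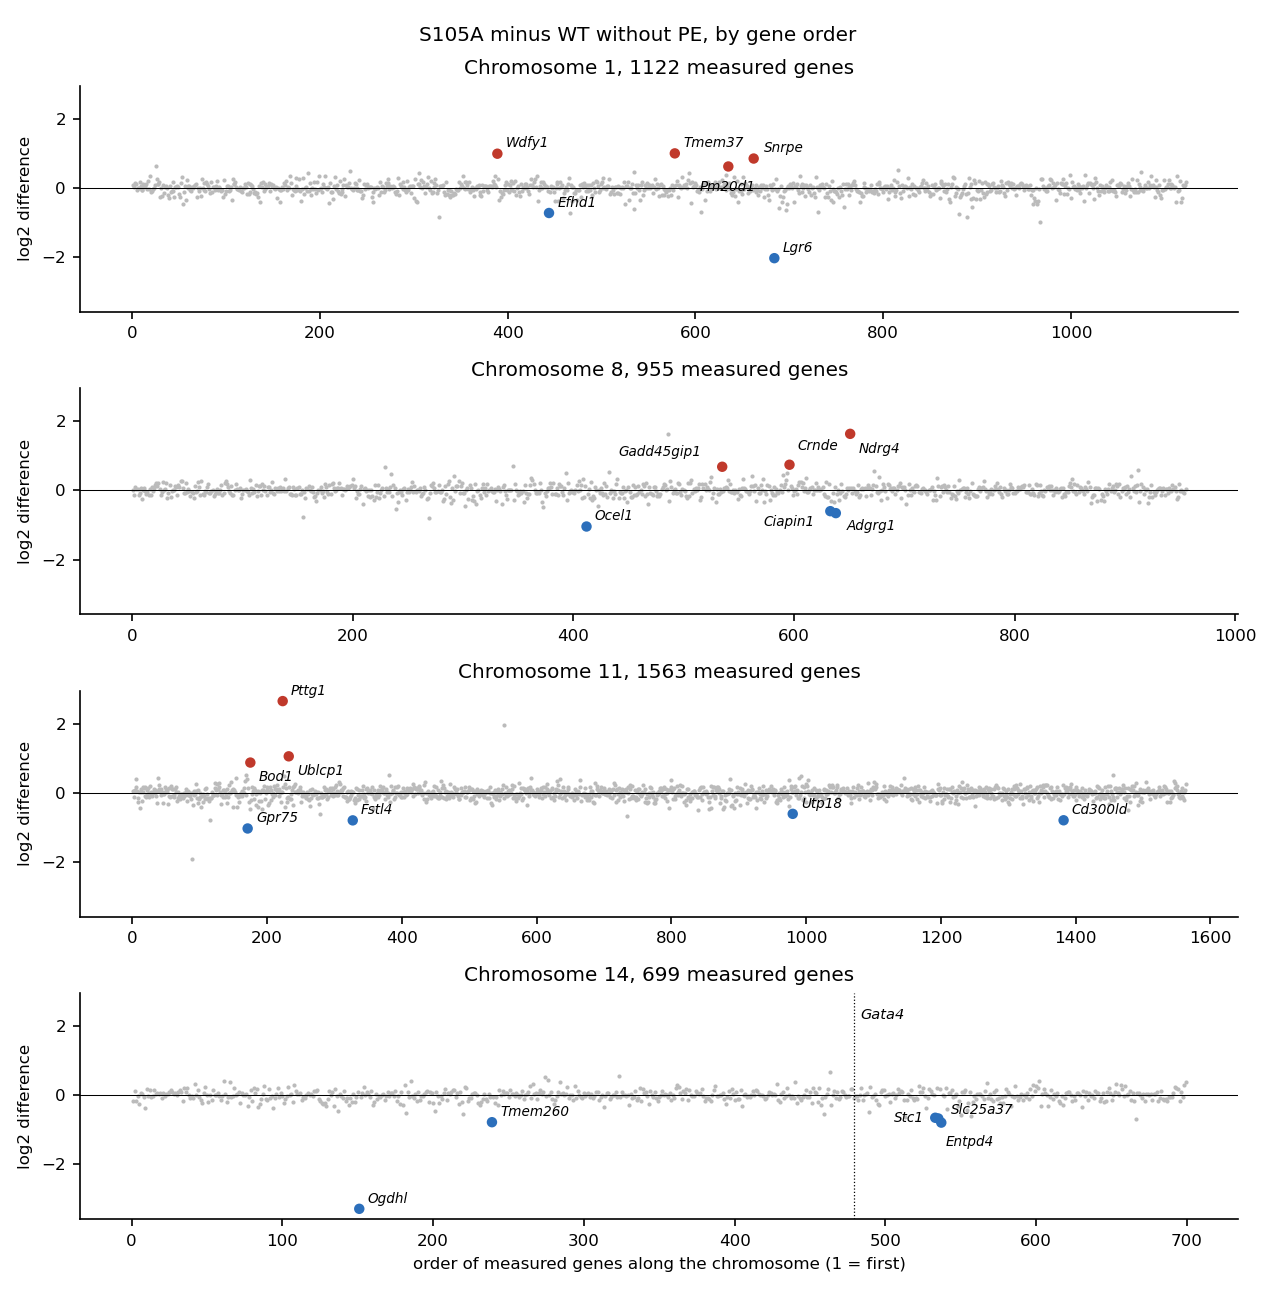
Log2 difference between S105A and WT untreated hearts for every measured gene in its order along chromosomes 1, 8, 11 and 14; coloured points are genes past an unadjusted p of 0.01 and 1.5-fold (red higher, blue lower), and the dotted line marks Gata4. Stc1, Slc25a37 and Entpd4 form a cluster to one side of Gata4, and the genes beside Gata4 scatter around 0.

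Gene lists were described by counts and medians, beside 50.9% of all genes higher, 49.1% lower and a median of 0.003. An unadjusted p under 0.05 was met by 4.96% of all genes. The lowest list was that of erythroid markers, genes of red cell precursors and reticulocytes. All 8 measured members were lower in S105A, the median was -0.37, and 6 had an unadjusted p under 0.05 (2.53% of genes on the lower side). Alas2, the first enzyme of heme synthesis in red cells, read 8.89 and 8.58 in WT and 8.17 and 8.27 in S105A, without overlap. Tent5c, a poly(A) polymerase, read 8.25 and 7.86 against 7.47 and 7.37, and Slc4a1, the red cell anion exchanger, 7.09 and 7.14 against 6.88 and 6.61. Ube2l6 (-0.44) and Isg20 (-0.36), 2 of the 6, are also known as interferon-induced genes, and the red cell membrane protein gene Epb42 differed by -0.21. The mean of the list was 7.62 and 7.50 in WT, 7.19 and 7.23 in S105A, and between 6.79 and 7.05 in the 4 PE arrays. With PE the direction was not shared: 5 of the 8 were higher in S105A (46.9% of all genes) and the median was 0.08. In such tissue samples fewer cells of a type and less RNA per cell cannot be told apart.

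Markers of macrophages, fibroblasts and endothelial cells had more members lower than higher, and lymphocyte markers had 10 of 16 higher (median 0.06). Macrophage markers were lower for 21 of 22 genes (median -0.27), none with an unadjusted p under 0.05, and 13 lay lower without overlap (22.7% of all genes). Their mean was 7.90 and 8.16 in WT and 7.74 and 7.82 in S105A, so array 2 was the highest of the 4 untreated arrays; the PE arrays lay between 8.28 and 9.08. Without array 2 their median was -0.11. With PE, 3 of the 22 were higher and the median was -0.25. The complement gene C1qb read 9.81 and 10.25 in WT against 9.52 and 9.56, and the scavenger receptor gene Cd163 7.14 and 7.95 against 6.92 and 7.15. Array 2 also carried the neutrophil genes at higher values than array 1: Retnlg, a secreted protein of neutrophils, read 7.10 in array 2 and 4.53 in array 1, and the calprotectin gene S100a8 6.66 and 5.29. Its part in the macrophage result was not tested beyond that omission.

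Fibroblast markers were lower for 15 of 17 genes (median -0.10). Pi16, a peptidase inhibitor of resting fibroblasts, read 8.14 and 8.19 in WT and 7.53 and 7.67 in S105A, and the collagen receptor gene Ddr2 8.57 and 8.54 against 8.38 and 8.22. The difference in Pi16 was -0.57 without PE and 0.31 in the opposite direction with PE. Extracellular matrix genes were lower for 32 of 40 (median -0.08), none with an unadjusted p under 0.05. Endothelial markers were lower for 15 of 18 (median -0.11), with Eng, the coreceptor endoglin, at 11.07 and 11.16 against 10.86 and 10.90. Without array 1 the endothelial median was 0.01, on the other side of 0. Endothelial genes were highest in that array, with a mean of 10.04 against 9.82 to 9.88 in the other 3 untreated arrays.

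**Figure D4:**
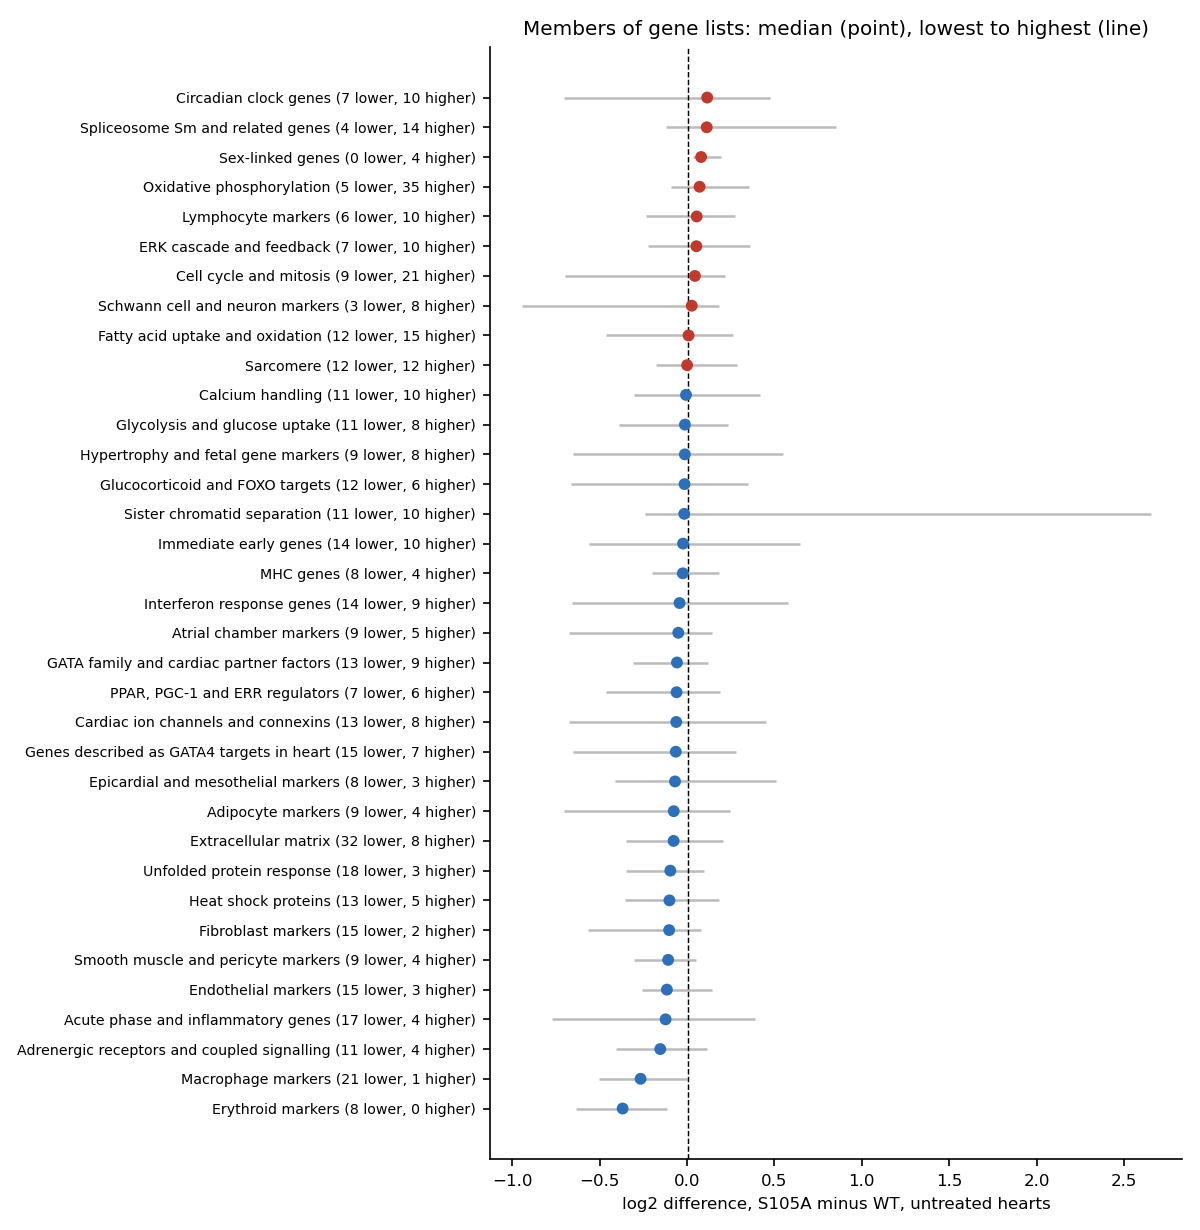
Log2 difference between S105A and WT untreated hearts for the members of 35 gene lists; points are medians, lines run from the lowest to the highest member, and the dashed line is the median of all genes (0.003). Erythroid (-0.37) and macrophage (-0.27) markers lie lowest, and Pttg1 stretches the list of sister chromatid genes to 2.65.

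Lists of oxidative phosphorylation and of the spliceosome had more members higher than lower in S105A. Of 40 oxidative phosphorylation genes, 35 were higher in S105A, 28 of them without overlap (21.8% of all genes), but the median was 0.07 and none had an unadjusted p under 0.05. Ndufa4, a subunit of the respiratory chain, read 12.21 and 12.06 in WT and 12.44 and 12.54 in S105A. The list mean was 12.25 and 12.24 in WT and 12.35 and 12.35 in S105A, without overlap. With PE all 40 were higher in S105A (median 0.26), but the list means of the PE groups overlapped. These means were 11.52 and 12.19 in the WT PE arrays and 12.02 and 12.19 in the S105A PE arrays. WT PE array 3 was the lowest of the 8, and WT PE array 4 lay above S105A PE array 7. Of fatty acid oxidation genes 15 of 27 were higher (median 0.009), and of glycolysis genes 8 of 19 (median -0.01). Spliceosomal Sm and related genes were higher for 14 of 18 (median 0.11). Besides Snrpe the Sm protein gene Snrpd1 (0.26) and Lsm2 (0.22) had an unadjusted p under 0.05 (2.43% of all genes on the higher side). With PE, 15 of the 18 were higher (46.9% of all genes), with a median of 0.09. Snrpd1 then differed by -0.01 and Lsm2 by 0.06, against 0.80 for Snrpe.

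Pttg1 and Bod1 belong to the list of sister chromatid separation, whose 21 measured genes split into 10 higher and 11 lower with a median of -0.02. The third gene of that list with an unadjusted p under 0.05, the anaphase-promoting complex subunit Anapc1, was lower (-0.22). Cell cycle genes had a median of 0.05, with 21 of 30 higher and none with an unadjusted p under 0.05. The cell cycle genes lay between -0.70 and 0.22, a range that Pttg1 and Bod1 exceeded.

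Circadian clock genes lay on both sides. Per3, a repressor of the clock, read 7.14 and 7.05 in WT and 7.54 and 7.60 in S105A, and Clock, an activator, 9.24 and 9.40 against 8.90 and 8.88. Arntl, the partner of Clock, was lower (7.33 and 7.37 against 6.48 and 6.82, difference -0.70, unadjusted p = 0.0535 by limma). The output genes Dbp (0.44), Tef (0.29) and Hlf (0.36) did not overlap between the genotypes (21.8% of all genes on the higher side), and none of these 3 had an unadjusted p under 0.05. The list had 10 of 17 genes higher and a median of 0.12, and 2 genes (Per3 and Clock) had an unadjusted p under 0.05 (4.96% of all genes).

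Signalling genes upstream of the altered serine were described as well. Of 15 measured genes of adrenergic receptors and their coupling proteins, 11 were lower (median -0.15). The receptors among the 15 were Adra1b (-0.27) and Adra2c (0.11). With PE, 8 of the 15 were higher and 7 lower (median 0.003). Adcy5, a cardiac adenylyl cyclase, read 9.29 and 9.65 in WT and 9.17 and 8.96 in S105A, and the G protein gene Gna11 9.99 and 9.93 against 9.72 and 9.66. Their unadjusted p was 0.0218 and 0.0195 (limma), and 2.53% of all genes lay under 0.05 on the lower side. The ERK cascade and its feedback genes had 10 of 17 higher, a median of 0.05 (-0.002 without array 6) and no gene with an unadjusted p under 0.05. Among immediate early genes, Maff (-0.56) and Jun (-0.33) were lower and Ier3 (0.64) higher at that threshold, 3 of 24 genes (4.96% of all genes), and the median was -0.02. Of interferon response genes, 14 of 23 were lower, with a median of -0.04. Oas2 (-0.66), Stat2 (-0.38) and Ddx58 (-0.41) had an unadjusted p under 0.05 on the lower side (2.53% of all genes). The list mean was 7.48 and 7.55 in WT, and 7.27 and 7.63 in S105A, on either side of both WT arrays. With PE, 17 of the 23 were higher in S105A (46.9% of all genes). The unfolded protein response (18 of 21 lower, median -0.10) and heat shock proteins (13 of 18 lower, median -0.10) had no gene with an unadjusted p under 0.05.

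The tissue label was checked with muscle, chamber and sex markers. Myh6 lay between 13.07 and 13.59 and Tnnt2 between 13.71 and 13.83 in all 8 arrays, both genes of heart muscle contraction. Myl7 and Sln, an atrial myosin light chain gene and that of sarcolipin, lay between 5.53 and 6.02 and between 4.51 and 4.73 in all 8 arrays. Other atrial markers read higher, with Kcnj3, an atrial potassium channel gene, between 8.24 and 10.72 and the atrial light chain gene Myl4 between 8.02 and 8.92. Levels of different probe sets cannot be compared, so these values do not settle whether atria were included. Atrial markers had 5 of 14 higher and a median of -0.05 (0.02 without array 1). Xist lay between 4.05 and 4.23 in all arrays, and the Y-linked Kdm5d between 7.09 and 7.52, so no array stood apart from the others by these genes. Scores on the first principal component of the 4 untreated arrays (52.5% of the variance) put the arrays at -5.05 and -16.9 (WT) and 9.44 and 12.5 (S105A), with the 2 WT arrays farther from each other than the S105A arrays were.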

How the data were processed

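Per the submitters' processing notes, the authors computed the deposited log2 expression values with RMA, which corrects background, equalises intensity distributions and summarises probes; its version is not given in the sources used here, and a shift common to most genes would not be seen. The values ran from 2.63 to 14.45, and 0 other columns of per-sample values were left out. Of 35557 rows, 21789 had 1 gene symbol in the platform annotation; for 999 genes with several probe sets the one with the highest mean over 8 arrays was used, which gave 19938 genes. Of these, 19855 had an Entrez match in the RefSeq table (GRCm38.p6), used for gene order.

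The 8 arrays were modelled together, 1 coefficient for each group, using limma 3.58.1 (lmFit, eBayes) under R 4.3.3, with 4 residual and 2.74 prior degrees of freedom; p-values are two-sided and adjusted by Benjamini-Hochberg over all genes. Precision is limited by the number of arrays.

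The genes named are those past an adjusted p of 0.05, or else the 15 per direction with the smallest p, a difference of at least 0.5 and no overlap. To these come the 5 per direction with the largest difference, up to 3 members per list with the smallest p, fixed heart genes, and genes beside Gata4 or in runs of neighbours. Members, lists (35, with 668 of 734 entries measured) and rules were chosen with earlier results of these data known. Alternatives were the arrays fitted, filters, probe set choice, normalization, variance prior, array weights, thresholds and leaving out each array. The fit was tested on simulated data in which a gene had the same spread in every group.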

Additional observations from a re-analysis of the deposited data

Results flagged for a closer look

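Rows that the comparison did not use were counted at the same threshold, and whether their count exceeds noise was not tested. Of 13768 rows without a single gene symbol, 161 (1.17%) passed an unadjusted p of 0.01 and a 1.5-fold difference between S105A and WT untreated hearts, 101 higher and 60 lower in S105A. None passed an adjusted p of 0.05 in that fit (limma, all rows). In the same fit 36 of the 19938 rows that stand for genes passed. The median level of the 161 rows was 5.52 on the log2 scale, against 5.21 for all rows without a single symbol, both under the array medians of 6.18 to 6.23. These rows are unnamed here.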

How the results depend on the processing

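The number of genes past an adjusted p of 0.05 without PE was 0 in the fit reported. It was 4 with the 4 untreated arrays alone and the same 4 genes without arrays 3 and 7, a fit in which the lone PE arrays add no spread. It was 1 (Pttg1) with probe sets averaged per gene, with arrays centred on their median, with a trended and robust variance and at an adjusted p of 0.10, and 6 with array weights. Leaving out each array gave 0 to 3, the 3 (Pttg1, Ogdhl, Lgr6) without array 3 or array 4. The count past an unadjusted p of 0.01 and 1.5-fold, 39, became 84 with the untreated arrays alone and without arrays 3 and 7, 205 over all rows, 71 with array weights, 167 with no minimum fold and 9 with a 2-fold minimum. Leaving out each array gave 28 to 97, the highest without array 1. With PE, leaving out each array gave 0 to 711 genes past an adjusted p of 0.05, 4 without array 3 and 711 without array 4. Averaged over treatments, the count of 1 became 0 over all rows and 6 with array weights, and leaving out each array gave 0 to 225. Of the values of named genes under these alternatives, 2559 kept direction and side of the threshold, 23 passed it newly and 22 changed sign without having been called. Of list medians, 558 moved less than the spread and 54 moved more. No paired analysis was possible because the groups share no replicate numbers. The levels of dim probe sets have no measured background here.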

Other observations

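Differences inside a group were led by a few genes. In the WT untreated pair, array 2 was above array 1 for neutrophil genes: Retnlg (4.53 and 7.10 in arrays 1 and 2), the collagenase gene Mmp8 (4.38 and 6.71), S100a9 (6.47 and 8.39) and the chemokine receptor gene Cxcr2 (4.89 and 6.78). All 4 lay at or under 6.75 for S100a9 and 5.05 for the others in the S105A arrays. The glucocorticoid-induced Fkbp5 was also higher in array 2 (6.89 and 8.33), while the endothelial apelin receptor gene Aplnr was lower (9.96 and 8.46).

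In the S105A untreated pair, array 6 was above array 5 for Gbp4, an interferon-induced GTPase (7.48 and 8.55), and for the class I histocompatibility genes H2-Q4 (7.98 and 9.04) and H2-Q5 (7.60 and 8.51). The skeletal actin gene Acta1, a gene of the fetal program in heart muscle, read 10.38 and 11.35 in the same 2 arrays, which lie on either side of both WT arrays (10.81 and 11.12).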
